A study of Homo sapiens with 6 samples.

Results

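The MYC, MAX and MXD network was followed in RNA-seq of HCC2814 cells, a human lung squamous cell carcinoma (LUSC) line. The network was taken as 10 genes matched by symbol, MYC, MYCN, MYCL, MAX, MXD1, MXD3, MXD4, MXI1, MNT and MGA, of the 17448 genes listed. All 10 were listed, and 9 were among the 12951 genes with enough reads to test. MYCN was not, with 0, 2 and 0 counts in WT and 2, 3 and 0 in MLST8-KO cells. The 3 WT samples carried a non-targeting guide and the 3 MLST8-KO samples a guide against MLST8, a subunit of the mTORC2 and mTORC1 kinase complexes. Both were delivered in lentiCRISPR v2 and followed by antibiotic selection, so both groups carry a guide, Cas9 and resistance. Labels do not say whether the 3 samples of a group came from separate guides, infections or cultures, and p-values therefore measure only the spread between these samples. For its western blots the paper lists 3 numbered sgControl and 3 numbered sgMLST8 entries, but does not tie them to the RNA-seq samples.

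MYC is a basic helix-loop-helix leucine zipper transcription factor that binds DNA as a heterodimer with MAX, chiefly at E-boxes with the core CACGTG, and activates genes for ribosome production, metabolism and cell growth. MXD proteins, MXI1, MNT and MGA compete for the same partner, and MXD proteins and MNT recruit SIN3 and histone deacetylases to the same sites to repress transcription. MXD proteins are best known from cells that leave the cell cycle and differentiate, and MYC family genes are frequently amplified in lung cancers.

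Because the network's dimers bind the E-box, the 250 bases before the RefSeq start (build GRCh38.p14) of each member were searched for CACGTG, which reads the same on both strands. Of the 9 members whose window was read, MXD4 and MNT held 1 each, as did MLX, which encodes a MAX-like partner of MXD1, MXD4 and MNT. The window of MYC was not used here. The 60 bases around each are shown 5′ to 3′ on the gene's strand with the E-box in capitals, because these genes had different outcomes in the comparison below. MXD4 is from chr4:2262300-2262359 (minus strand), MNT from chr17:2401221-2401280 (minus strand) and MLX from chr17:42567008-42567067 (plus strand).
MXD4: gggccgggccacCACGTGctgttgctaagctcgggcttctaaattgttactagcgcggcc
MNT: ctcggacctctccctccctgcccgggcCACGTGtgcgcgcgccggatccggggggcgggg
MLX: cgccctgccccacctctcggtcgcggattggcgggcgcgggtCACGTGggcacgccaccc
The E-boxes began 238, 193 and 50 bases before the starts of MXD4, MNT and MLX. The motif was common: 6.49% of all 27305 promoters in the RefSeq table and 8.96% of the 10561 tested genes with a promoter held it. It was in 10.4% of genes higher in MLST8-KO cells, 9.19% of genes lower and 8.55% of genes with no call. A match describes the letters of this window and not a bound site. The windows of MAX, MYCL and MXD1 held none, but they lay inside the spans of these genes in GENCODE's annotation. Bases before those outer starts were not read, so a promoter E-box of these genes could have been missed.

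The libraries held 14381673 to 15744154 estimated counts. The targeted gene, MLST8, had 874, 827 and 842 counts in WT and 396, 629 and 401 in MLST8-KO cells, a log2 fold change of -0.96 ± 0.15 (SE; adjusted p = 0.00339). Each adjusted p is from the quasi-likelihood test of edgeR, adjusted by Benjamini-Hochberg over all genes tested, unless another tool is named. MLST8-KO replicate 2 kept the highest level of that group. All 8 squamous markers (KRT5, KRT6A, KRT14, KRT17, TP63, SOX2, DSG3 and PKP1) were expressed and rose, from a summed 11600 to 18580 TPM in WT to 23550 to 26380 in MLST8-KO cells. The calls of KRT5, KRT6A and TP63 were lost without WT replicate 2, MLST8-KO replicate 1 or MLST8-KO replicate 2. Those of KRT5 and KRT6A were also lost without MLST8-KO replicate 3, and that of DSG3 without WT replicate 2 or MLST8-KO replicate 2. Of the 4 general epithelial markers, KRT18 (-0.86, adjusted p = 0.00542) and KRT8 (-0.47, adjusted p = 0.0124) fell, and EPCAM and CDH1 were not called. The KRT8 call was lost without MLST8-KO replicate 1 or MLST8-KO replicate 2. TPM is a transcript level scaled by gene length and depth. Of the 3 leukocyte markers listed, PTPRC had at most 1 count and LYZ at most 5, while CD68 had 625 to 1079. The 4 endothelial markers summed to 0.53 to 1.13 TPM, with PECAM1 at 7 to 22 counts, VWF at 20 to 35, KDR at most 3 and CDH5 at most 1. The 5 fibroblast markers summed to 10.01 to 11.16 TPM in WT and 11.25 to 13.19 TPM in MLST8-KO cells, mostly from COL1A1 (435 to 548 counts), and none was called. CD68 (-0.45, adjusted p = 0.0413) and PECAM1 (-1.34, adjusted p = 0.0180) were lower in MLST8-KO cells, and their part in the results below was not tested. Each of these calls was kept in only 2 of the 6 fits without a single library. Both were lost without WT replicate 2, MLST8-KO replicate 1 or MLST8-KO replicate 3, and with limma on TPM. The 7 hepatocyte markers summed to 242.7 TPM in MLST8-KO replicate 1 and to 0.55 to 5.95 TPM in the other 5 libraries. Calls lost or counts changed without that library are given beside the result.

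Among the 9 tested members, 2 rose in MLST8-KO cells, MYCL and MXD4, and 1 fell, MAX. MYC, MXD1, MXD3, MXI1, MNT and MGA did not pass the test at an adjusted p under 0.05. Over all genes tested, 16.3% rose and 15.7% fell, so the members' 2 and 1 of 9 are close to the background in both directions. In CPM, counts scaled by library total after TMM normalisation, every MLST8-KO sample was above every WT sample for 2 members, MYCL and MXD4, against 24.8% of all genes tested. Every MLST8-KO sample was below every WT sample for 3 members, MAX, MXI1 and MNT, against 24.2%. In TPM, MXI1 and MNT overlapped between the groups.

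**Figure D1:**
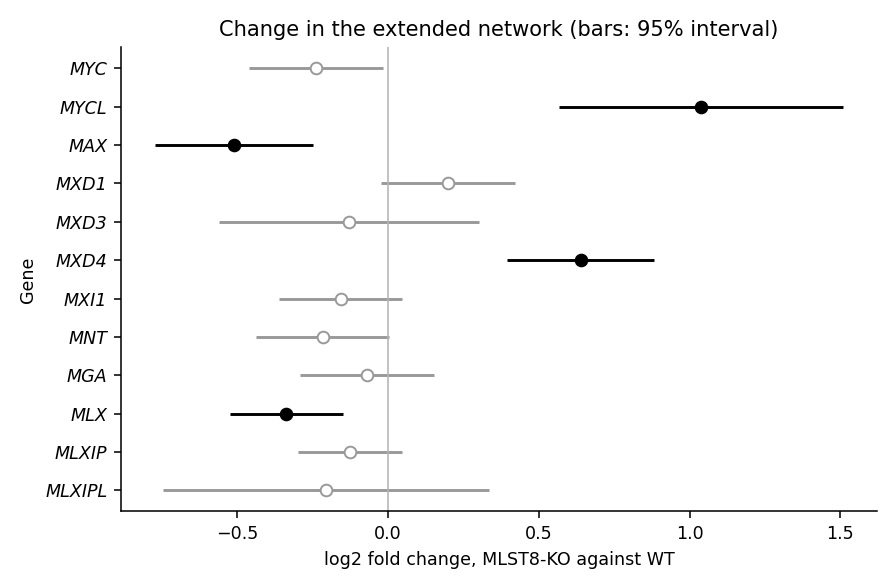
Log2 fold change of MLST8-KO against WT (horizontal axis) for the 9 tested members and for MLX, MLXIP and MLXIPL. Points are edgeR estimates from 3 samples a group, bars are 95% intervals, and filled black points passed an adjusted p of 0.05. MYCL at 1.04 and MXD4 at 0.64 lie to the right, MAX at -0.51 and MLX at -0.34 to the left, and the others did not pass.

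MYC, the activator, was the most abundant member. Its counts were 6907, 6129 and 5891 in WT and 5473, 5307 and 6647 in MLST8-KO cells, and its levels were 188, 175 and 169 TPM against 156, 148 and 181 TPM. MLST8-KO replicate 3 lay within the WT range, so the groups overlapped. The log2 fold change was -0.24 ± 0.10 (SE; 95% interval -0.46 to -0.02) and missed the threshold after adjustment (adjusted p = 0.0918, edgeR). Without MLST8-KO replicate 3 the fold change was -0.35 and passed (adjusted p = 0.0269), and without any other single library it did not. The gene lies at chr8:127735434-127741434 on the plus strand in GENCODE's annotation of GRCh38.

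MYCL, a shorter relative of MYC first described in small cell lung cancer, rose the most of the members. It had 65, 70 and 58 counts in WT and 179, 106 and 145 in MLST8-KO cells, with every MLST8-KO sample above every WT sample. The levels were 2.50, 2.99 and 2.42 TPM against 7.47, 4.15 and 5.78 TPM. MYCL was 2.05-fold higher (log2 fold change 1.04 ± 0.21, SE; adjusted p = 0.00727, edgeR) and its log2 fold change ranked 343 among the genes tested. Leaving out single libraries gave log2 fold changes of 0.83 to 1.23, lowest without MLST8-KO replicate 1, and each passed. Even so, MYC exceeded it by 58.5 to 75.3 times in WT and by 20.9 to 35.6 times in MLST8-KO cells, in TPM. MYCL therefore made up 0.735% ± 0.088 (SD, n = 3) of the network's summed TPM in WT and 1.77% ± 0.50 in MLST8-KO cells. That share did not overlap between groups (p = 0.1, exact two-sided permutation test, the smallest p that 3 against 3 samples allow). MYCL spans chr1:39895426-39902256 on the minus strand, and an antisense gene, AL033527.2, overlaps its exons. Whether the counting used strand is not given in the sources used here.

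MYCN, the neural relative, stayed between 0 and 3 counts, at or under the 3 counts that a count of 0 allows in a library, and no fold was computed.

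**Figure D2:**
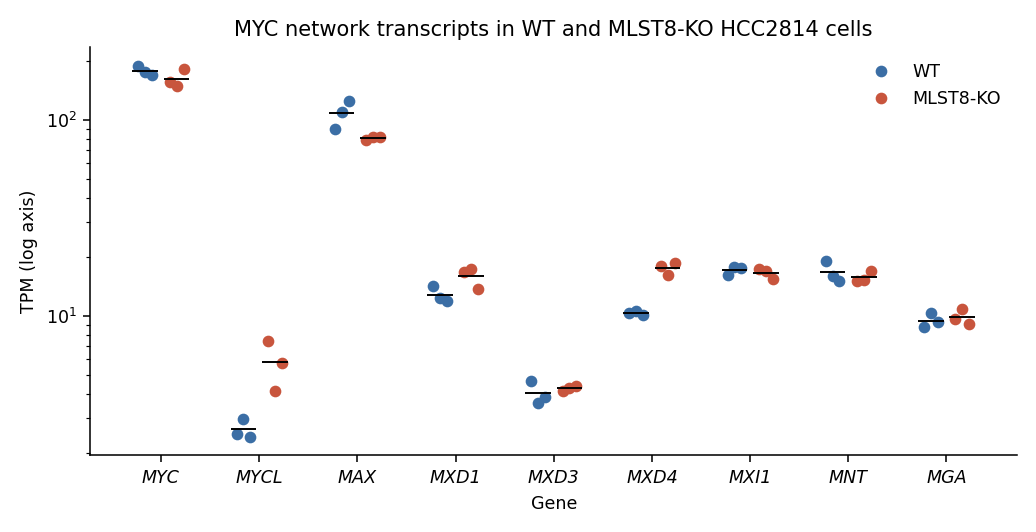
TPM on a log axis (vertical) for the 9 tested members in WT (blue) and MLST8-KO (red) samples. Each point is 1 sample and each line the mean of 3. MYC and MAX lie above 78 TPM in every sample and the others below 20, and the groups are apart for MYCL, MAX and MXD4.

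MAX, the shared partner without which MYC and its antagonists bind DNA poorly, fell. Its counts were 1371, 1613 and 1792 in WT and 1170, 1231 and 1263 in MLST8-KO cells. The WT samples were spread from 90.2 to 125 TPM while the MLST8-KO samples lay within 78.7 to 81.6 TPM. WT replicate 1 was the WT sample nearest to the MLST8-KO group. MAX was 1.43-fold lower (log2 fold change -0.51 ± 0.12, SE; adjusted p = 0.0109, edgeR). Leaving out single libraries gave -0.63 to -0.38, and the largest adjusted p among these fits was 0.0497, without MLST8-KO replicate 1. MAX made up 25.5%, 30.6% and 34.4% of the network's TPM in WT and 24.3%, 25.8% and 23.5% in MLST8-KO cells. The gene lies at chr14:65006174-65102695 on the minus strand, and an antisense gene, AL139022.1, overlaps its exons.

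WT replicate 1 also lay nearest to the MLST8-KO group in the summed TPM of the squamous markers (18580, against 14320 and 11600 in WT replicates 2 and 3). The 16 proliferation genes showed the same order, with 694.5, 616.7 and 499.2 TPM in WT replicates 1, 2 and 3. The part of either in the MAX result was not tested.

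MXD4, an antagonist that dimerises with MAX and recruits SIN3, rose with little spread in WT. Counts were 293, 284 and 279 in WT and 480, 435 and 535 in MLST8-KO cells, with no overlap. The levels were 10.4, 10.6 and 10.1 TPM in WT against 17.95, 16.1 and 18.6 TPM in MLST8-KO cells. MXD4 was 1.56-fold higher (log2 fold change 0.64 ± 0.11, SE; 95% interval 0.40 to 0.88; adjusted p = 0.00412, edgeR), and it passed without each single library, at 0.55 to 0.73. It lies at chr4:2247432-2262294 on the minus strand and is the called antagonist with the E-box printed above. A microRNA gene, MIR4800, overlaps its exons on the same strand.

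MXD1, also called MAD, had 650, 544 and 519 counts in WT and 731, 777 and 630 in MLST8-KO cells. MLST8-KO replicate 3 lay within the WT range. Its log2 fold change was 0.20 ± 0.10 (SE; 95% interval -0.02 to 0.42) and did not pass (adjusted p = 0.149, edgeR). Exons of MXD1 at chr2:69897688-69942945 overlap those of SNRNP27 on the same strand.

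MXI1, the antagonist also called MXD2, had 425, 444 and 434 counts in WT and 435, 434 and 405 in MLST8-KO cells. Its log2 fold change was -0.16 ± 0.09 (SE; adjusted p = 0.211, edgeR), and its levels overlapped in TPM, at 16.2 to 17.7 against 15.4 to 17.4. MXD4 was lower than MXI1 in each WT sample (ratio of TPM 0.578 to 0.642), and the 2 were near equal in MLST8-KO cells (0.949 to 1.20).

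MXD3, the member of the MXD group linked to cycling cells, was low, at 47 to 65 counts in WT and 50 to 61 in MLST8-KO cells. Its log2 fold change was -0.13 ± 0.19 (SE; adjusted p = 0.632, edgeR) and changed sign with limma on TPM. Its deposited counts were not whole in any of the 6 samples, and its exons overlap those of RAB24 and PRELID1, so its level is uncertain.

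MNT, a broadly expressed antagonist of MYC, had 703, 578 and 547 counts in WT and 533, 561 and 614 in MLST8-KO cells. The log2 fold change was -0.22 ± 0.10 (SE; adjusted p = 0.117, edgeR). WT replicate 1 was the highest, at 19.1 TPM, and the other 5 samples lay between 15.1 and 16.98 TPM.

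MGA, a very large protein that carries both a MAX-binding domain and a T-box and belongs to the PRC1.6 repressor complex, had 653, 738 and 674 counts in WT and 673, 817 and 655 in MLST8-KO cells. These ranges overlapped, and the log2 fold change was -0.07 ± 0.10 (SE; adjusted p = 0.606, edgeR). Its sign changed with limma on TPM.

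The order of levels, compared per length in TPM, was MYC, MAX, MXI1, MNT, MXD1, MXD4, MGA, MXD3, MYCL and MYCN in WT. MXI1 and MNT overlapped in range there, as did MXD4 and MGA. Mean levels were 177 ± 9.8 TPM (SD, n = 3) for MYC, 108.4 ± 17.5 for MAX and 17.1 ± 0.80 for MXI1. MYC was above 95.2% of the genes listed and MAX above 91.6%. In MLST8-KO cells the order was MYC, MAX, MXD4, MXI1, MXD1, MNT, MGA, MYCL, MXD3 and MYCN. MXD4, MXI1, MXD1 and MNT then overlapped from each to the next, at means of 17.5, 16.6, 15.9 and 15.8 TPM. MYCL, below MXD3 in every WT sample, overlapped it in MLST8-KO cells.

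The balance of MYC and its antagonists was compared as the ratio of MYC to the summed TPM of MXD1, MXD3, MXD4, MXI1 and MNT, which within a library does not depend on scaling. It was 2.92, 2.90 and 2.90 in WT and 2.19, 2.11 and 2.62 in MLST8-KO cells, so every MLST8-KO sample was below every WT sample. Of these antagonists only MXD4 was called, and MYC itself overlapped between the groups. With MXD4 left out of the sum, MLST8-KO replicate 3 lay above every WT sample in this ratio. The antagonist sums without MXD4 also overlapped between the groups. The separation described here therefore needs MXD4, and no p-value was computed without it. The mean log2 ratio was 1.54 ± 0.01 (SD, n = 3) in WT and 1.20 ± 0.17 in MLST8-KO cells, a difference of -0.34 (p = 0.1, exact two-sided permutation test, the smallest p this design allows). Without MLST8-KO replicate 1 the difference was -0.30. The antagonists summed to 58.4 to 64.5 TPM in WT and 69.1 to 71.2 TPM in MLST8-KO cells (p = 0.1, same exact test). Unlike the ratio, this sum depends on scaling, and its separation is stated for TPM only. In CPM every MLST8-KO sample was above WT for MXD4 but below WT for MXI1 and MNT, while MXD1 and MXD3 overlapped. The 10 genes together summed to 354 to 364 TPM in WT and 314 to 347 TPM in MLST8-KO cells (p = 0.1, same exact test). MYC's share of that sum was 49.4% ± 3.4 (SD) in WT and 49.2% ± 2.7 in MLST8-KO cells, with an exact permutation p = 0.9. The ratio of MYC to MAX overlapped, at 1.35 to 2.09 in WT and 1.82 to 2.22 in MLST8-KO cells (p = 0.3, exact permutation test).

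**Figure D3:**
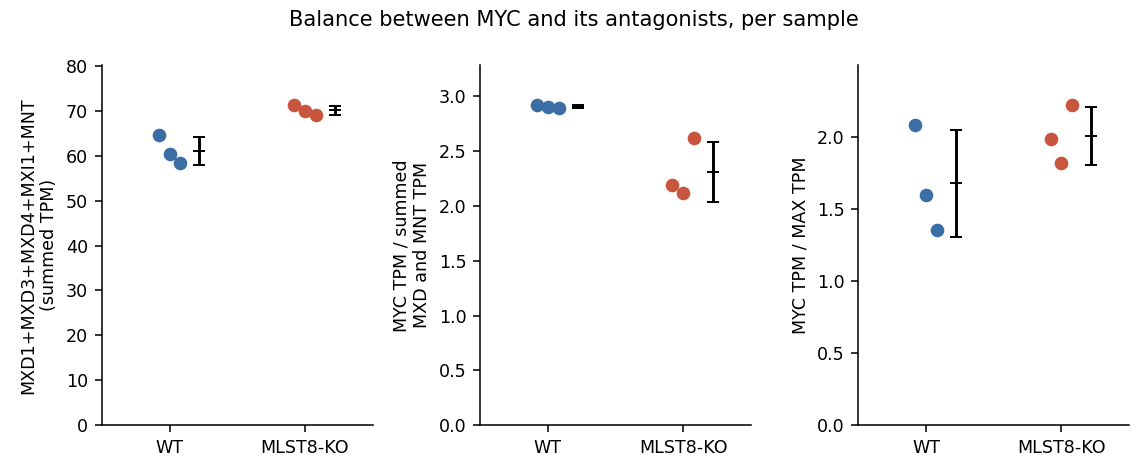
Summed antagonist TPM (left), ratio of MYC to that sum (middle) and ratio of MYC to MAX (right) in each WT (blue) and MLST8-KO (red) sample. Black marks are the mean and SD of 3 samples. The antagonist sum is higher in every MLST8-KO sample in TPM, a separation that depends on scaling. The MYC to antagonist ratio is lower in every one, and the MYC to MAX ratio overlaps.

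MLX, MLXIP and MLXIPL form a parallel arm in which MLX takes the place of MAX and pairs with glucose-responsive factors. MLX had 2252, 2282 and 2348 counts in WT and 1846, 1975 and 2115 in MLST8-KO cells, with no overlap. It fell, by 0.34 ± 0.08 on the log2 scale (SE; adjusted p = 0.0149, edgeR), but the call was lost without WT replicate 2 (adjusted p = 0.0554), MLST8-KO replicate 1 (0.0725) or MLST8-KO replicate 2 (0.0586). Its counts were not whole in any sample, and its exons overlap PSMC3IP on the other strand. MLXIP, the MondoA protein, had a log2 fold change of -0.13 (adjusted p = 0.231), and MLXIPL, known as ChREBP, of -0.21 (adjusted p = 0.537, both edgeR).

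Across the 6 samples the genes whose log2 CPM was most like that of MYC were PLD6, ABTB1 and RRS1 (Pearson r 0.991, 0.990 and 0.987, among 9402 genes with a mean of at least 10 CPM). The 6 points share the groups and libraries, and the values are a description with no test.

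The factors that work with the network were counted by list, beside the median log2 fold change over all genes tested, 0.00. Of 16 genes of the SIN3 corepressor that MXD proteins recruit, 3 rose and 2 fell (median 0.01). SIN3A, its scaffold, rose by 0.84 ± 0.13 on the log2 scale (SE; adjusted p = 0.00343, edgeR), from 14.7 to 28.7 TPM on average. HDAC1, its deacetylase, rose by 0.57 ± 0.09 (adjusted p = 0.00344), from 172 to 275 TPM. SAP130 also rose (0.32), and SAP18 (-0.28) and SUDS3 (-0.21) fell. The calls of all 3 were lost without WT replicate 2, MLST8-KO replicate 1 or MLST8-KO replicate 2, SUDS3's also without each other library, and both lower calls with upper quartile scaling or limma on TPM.

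Of 11 PRC1.6 partners of MGA, 1 rose, TFDP2 (0.35), and 2 fell, E2F6 (-0.44), a repressive E2F, and L3MBTL2 (-0.38), a methyl-lysine reader (median -0.11). The E2F6 call was kept without each single library, and L3MBTL2's was lost without 5 of the 6 libraries taken singly. That of TFDP2 was lost without WT replicate 2, MLST8-KO replicate 1 or MLST8-KO replicate 2, and with limma on TPM. Of the 14 germline genes listed as MGA targets, 6 had enough reads to test. By edgeR 0 passed the adjusted threshold and 2 had an unadjusted p under 0.05, and DESeq2 and limma also called 0. Without WT replicate 1, 1 rose and 1 fell.

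Among MYC cofactors, HCFC1 rose (0.34) and CCNT1 (-0.49), a cyclin of the elongation kinase P-TEFb, fell. CCNT1 kept its call without each single library, whereas HCFC1 lost it without WT replicate 2 or MLST8-KO replicate 2. Of 18 genes acting on MYC protein stability, 5 rose and 3 fell (median 0.12). GSK3B, a kinase that marks MYC for degradation, fell by 0.88 ± 0.14 on the log2 scale (SE; adjusted p = 0.00357, edgeR) from a mean of 60.5 to 35.5 TPM. USP36 (-0.45), a deubiquitinase of MYC, fell too, and like GSK3B kept its call under the 8 other settings and without each library. FBXW7 (-0.35), the ubiquitin ligase subunit that reads that mark, fell, but its call was lost under 4 of the 8 settings and without each library other than WT replicate 1. PLK1, a mitotic kinase, rose (0.98), as did CIP2A (0.46), an inhibitor of the phosphatase PP2A, PPP2R5A, HUWE1 and FBXO32. Without WT replicate 2, MLST8-KO replicate 1 or MLST8-KO replicate 2 only PLK1 of these 5 kept its call. FBXO32's was lost without every single library, and those of CIP2A and PPP2R5A also without WT replicate 3. Transcripts do not measure MYC protein, which was not measured in these files.

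Of 38 tested genes listed as induced by MYC, 13 fell and 5 rose, with a median log2 fold change of -0.12. The 13 included DDX18 (-0.54) and RRP12 (-0.47), both of ribosome assembly, ODC1 (-0.29), the first enzyme of polyamine synthesis, NPM1, GNL3, NOLC1 and TFRC. Those that rose were BOP1 (0.46) and NOP56 (0.42), also of ribosome assembly, CDK4 (0.28), CAD (0.25), of pyrimidine synthesis, and APEX1. NCL, encoding nucleolin, had a log2 fold change of -0.09 (adjusted p = 0.368, edgeR). The count of lower genes was 6 with upper quartile scaling, 4 with limma on TPM, and 4 without WT replicate 2, MLST8-KO replicate 1 or MLST8-KO replicate 2. The count of higher genes was 1 to 3 without any single library other than WT replicate 1, and NOP56 alone of the 5 kept its call without each library.

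Of 12 tested genes listed as repressed by MYC, 2 rose and 3 fell (median -0.31). CDKN2B, an inhibitor of CDK4 and CDK6, rose by 0.78 ± 0.14 on the log2 scale (SE; adjusted p = 0.00494, edgeR), and kept its call under every setting and without each library. CDKN1B (0.35, adjusted p = 0.0477) rose too, but its call was lost under 4 of the 8 other settings, DESeq2 among them, and without 4 of the 6 libraries (WT replicates 1 and 2, MLST8-KO replicates 1 and 2). GADD45A (-0.71), NDRG1 (-0.46) and CDKN1A (-0.42) fell. CDKN1A, encoding p21, went from 148 ± 1.9 TPM (SD, n = 3) to 119 ± 3.4 TPM and kept its call without each single library. Without MLST8-KO replicate 1 the calls of GADD45A and NDRG1 were lost and 1 gene of this list fell, and without WT replicate 1, 6 did.

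All 16 proliferation genes rose (median log2 fold change 0.70), from a summed 499 to 694 TPM in WT to 904 to 1040 TPM in MLST8-KO cells. MCM5 (1.44), a helicase subunit, E2F1 (1.0958), MKI67 (0.93) and RRM2 (0.93) had the largest changes. Without WT replicate 2, MLST8-KO replicate 1 or MLST8-KO replicate 2, 11 of the 16 passed. These genes moved with the groups alongside MYCL and MXD4, and their part in those results was not tested.

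**Figure D4:**
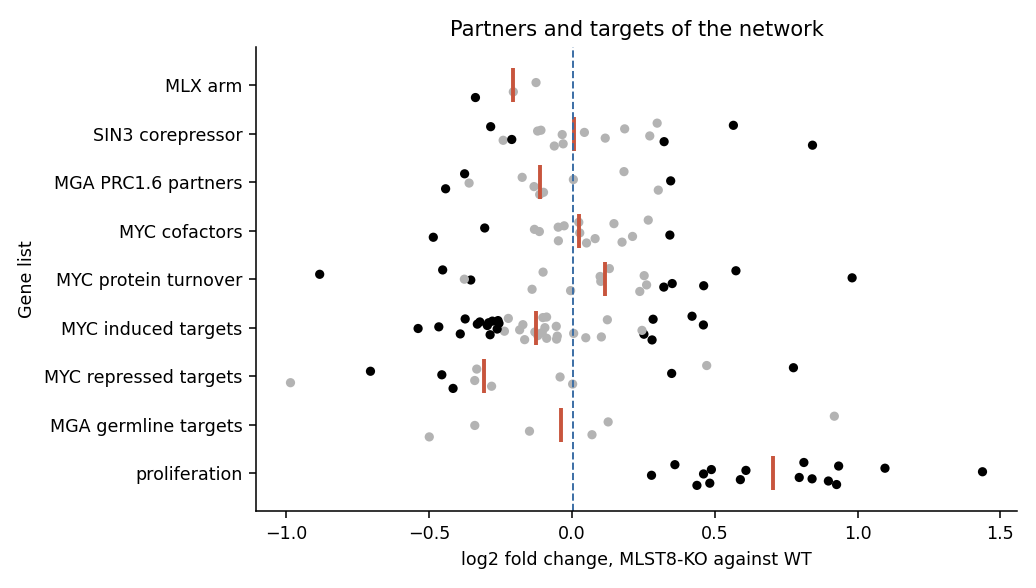
Log2 fold change of MLST8-KO against WT (horizontal axis) for each tested gene of 9 lists (rows). Black points passed an adjusted p of 0.05 in edgeR and grey points did not, orange bars are list medians, and the dashed line is the median of all genes tested. The medians are -0.12 for MYC induced targets, -0.31 for MYC repressed targets and 0.70 for proliferation.

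The calls for the members were set side by side across tools, scalings, filters and samples. MYCL, MAX and MXD4 passed under each of the 8 other settings and without each of the 6 libraries. MYC passed under none of the 8 and without 1 of the 6.

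**Figure D5:**
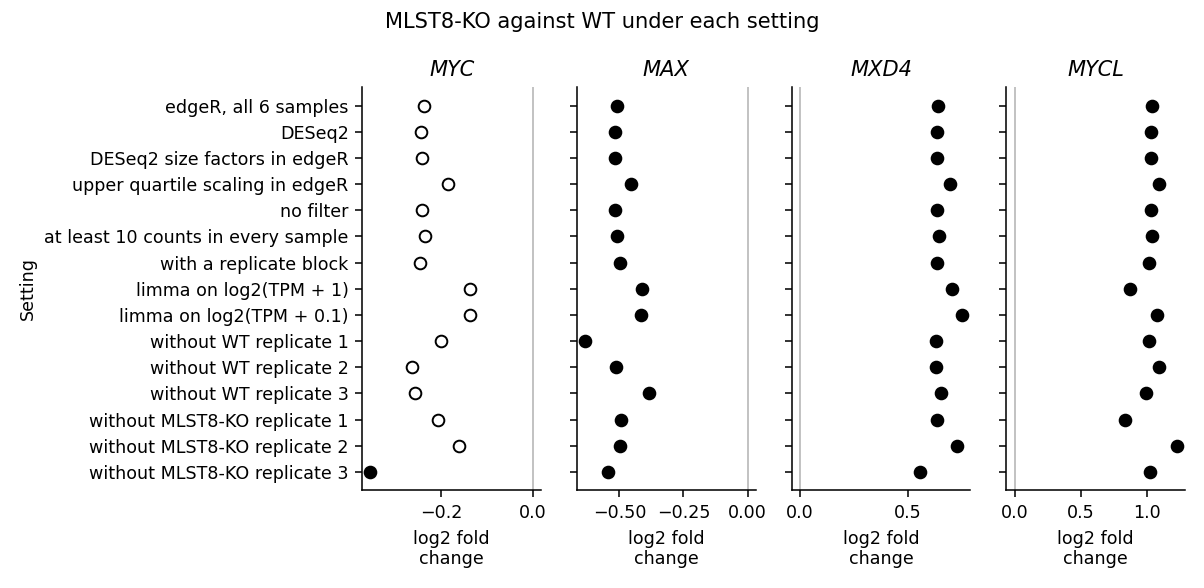
Log2 fold change of MLST8-KO against WT (horizontal axes) for MYC, MAX, MXD4 and MYCL under each setting (rows). Filled points passed an adjusted p of 0.05. MYC is filled only without MLST8-KO replicate 3, and the other 3 genes are filled in every row.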

How the data were processed

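RNA-seq covered 3 WT and 3 MLST8-KO samples, grouped by the labels. The libraries were made by polyA selection. The authors filtered the reads and deposited estimated counts per gene, and TPM scaled by gene length and depth. The submitters' processing notes name GRCh38.p12, HISAT and Bowtie2. A deposited table of the authors' own comparison (fold changes and p-values) was not used. Symbols turned into dates (25) were restored through Entrez identifiers.

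Of the estimated counts, 12.4% were not whole, and all were rounded. Testing used edgeR 4.0.16 in R 4.3.3 (TMM, filterByExpr by group, glmQLFit, glmQLFTest) with Benjamini-Hochberg adjustment over 12951 genes and a threshold of 0.05. SE was the absolute log2 fold change over the square root of F. On simulated counts with 200 of 12951 genes changed by a log2 fold change of 1, 90.5% were recovered and 7.18% of calls were false. Replicates differed beyond sampling noise (chi-square per gene 6.98 to 26.5). A count of 0 allows up to 3 counts, 0.185 to 0.216 CPM, for counting error only. The same comparison was also run in DESeq2 1.42.0 and, for TPM, in limma 3.58.1 with a pseudocount of 1 or 0.1, with other scalings and filters, with replicate number as a block, and without single samples. Coordinates are from GENCODE release 29 and promoters from RefSeq, found for 10561 of the tested genes.

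The members and lists were chosen with earlier results of these data known. Named genes were the members, MLX, MLXIP, MLXIPL, MLST8, NCL, ODC1, CAD, CDK4 and CDKN1A, up to 4 called genes per list with the largest change and a mean of at least 50 counts, and the 3 genes most like MYC. Other genes named in list counts are those the count holds. Some items are not reported here. Figures used matplotlib 3.10.9.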

Additional observations from a re-analysis of the deposited data

How the results depend on the processing

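The calls for MYCL, MXD4 and MAX kept their direction and their side of the threshold under the 8 other settings and without each library. The number of members lower was 1 to 2 when single libraries were left out, with MYC added without MLST8-KO replicate 3. Genes called higher numbered 971 to 2692, and lower 850 to 2651, when single libraries were left out. Both counts were lowest without WT replicate 2 (971 and 1044), MLST8-KO replicate 1 (979 and 850) or MLST8-KO replicate 2 (1136 and 1091), in fits with fewer samples. With limma on log2(TPM + 1) 1115 genes were lower, and on log2(TPM + 0.1) 1091. The share of calls that were higher was 51.0% with TMM, 62.0% with upper quartile scaling, and 70.7% and 70.8% with limma on the TPM scales, where the median of all genes moved to 0.09 and 0.10. Under the 2 limma settings the sign turned for MXD3 (0.0677 and 0.0834), MGA (0.0578 and 0.0632) and NCL (0.0113 and 0.0113), none of them called. The cause was not tested. The difference in the log2 ratio of MYC to its antagonists was -0.33 from counts, -0.32 with MGA in the sum, and -0.43 to -0.28 without single libraries.

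Replicate numbers were not taken as pairs, since the correlations of deviations of same-numbered samples were 0.105, 0.0565 and 0.140, although each sample correlated best with its own number. With a replicate block 2261 genes were higher and 2157 lower, and the calls of MYCL (1.01), MXD4 (0.63) and MAX (-0.50) did not change. At this depth MYCN was not testable, and MXD3 and MLXIPL had wide intervals.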
